A study of Homo sapiens with 6 samples.

Results

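The genes described here are 39 genes that fold, modify and clear proteins in the endoplasmic reticulum (ER) or sense stress in it. They were taken by symbol from a fixed list, each symbol matched exactly 1 Ensembl gene with counts, and they are 39 of the 26613 genes counted in any library. All 39 were among the 15607 genes with enough counts to test, with 59 to 9374 counts per library, so none was lost to the filter on low counts. The cells were 293T, a highly transfectable line derived from human embryonic kidney 293 cells. In 3 cultures a synthetic duplex of the microRNA miR-941 (the mimic group) was delivered with Lipofectamine 2000 at 10 nM, and in 3 parallel cultures a scrambled oligonucleotide (the mock group). All 6 cultures were thus transfected, and none was left untreated. No concentration is given for the scrambled oligonucleotide, so its dose and its sequence cannot be told apart as sources of a difference. RNA depleted of ribosomal RNA was sequenced, and each gene was counted, with 6079420 to 7651046 counts per library. The labels describe independent replicates, and say neither how the cultures were otherwise kept apart nor how long after transfection RNA was taken.

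Proteins bound for secretion or for membranes enter the ER unfolded. Hsp70 and Hsp90 chaperones, lectins that read sugar chains and disulfide isomerases fold them there, and proteins that fail are pulled back to the cytosol and degraded. When unfolded protein builds up, the sensors IRE1, PERK and ATF6 start the unfolded protein response, which raises transcription of the folding and degradation genes through short promoter elements. IRE1 acts by splicing the XBP1 mRNA, PERK by slowing translation, and ATF6 by being cut from the membrane. Gene counts show none of these 3 steps. They show only the total mRNA of each gene relative to the rest of its library, so that more RNA per cell and more cells with that RNA cannot be told apart.

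Some sequences bear on these genes directly, the seed of the transfected microRNA and the stress elements of their promoters. The mature miR-941 strand is shown with its seed, bases 2 to 8, in capitals, as listed in RefSeq (GRCh38.p14) for 5 annotated copies.
miR-941: cACCCGGCugugugcacaugugc

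The complement of the seed, GCCGGGT, was present in the longest annotated 3′ UTR of 0 of the 39 genes, against 706 of the 13110 tested genes with an annotated 3′ UTR, or 5.39%. The median 3′ UTR length was 1573 bases for the 39 genes and 1652 bases for all. The shorter match to bases 2 to 7 was found in 3 of the 39 (7.69%), DNAJC3, P4HB and TXNDC11, against 15.5% of all. The TXNDC11 match, at chr16:11721362-11721367, lay far inside the gene, whose 3′ end is at 11679080. The longest annotated 3′ UTR need not be the one used in these cells. The P4HB match, on chr17:81843274-81843279 (minus strand of GRCh38, GENCODE release 29), is printed with its flanks because P4HB was among the genes that rose. Its 6 matching bases are in capitals.
P4HB: gacccttgactcCCGGGTggggaggtggc

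The stress elements searched were ERSE, spelled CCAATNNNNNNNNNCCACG, and ERSE-II, spelled ATTGGNCCACG. Both end in CCACG, and the complement of ATTGG is CCAAT, so they share parts. Both strands were searched from 250 bases before each RefSeq transcription start to 50 bases after it. An element was present in 11 of the 37 genes with a window (29.7%), against 44 of all 27305 genes in the table (0.161%), or 46 of 35116 windows (0.131%). No window of the 37 genes held both kinds. These genes include textbook targets of the response, so the high share describes the choice of genes. The 300 bases of the HSPA5 window, chr9:125241294-125241593 (minus strand, GRCh38.p14), are shown because HSPA5 encodes BiP, the central ER chaperone, with the fixed letters of the element in capitals.
HSPA5: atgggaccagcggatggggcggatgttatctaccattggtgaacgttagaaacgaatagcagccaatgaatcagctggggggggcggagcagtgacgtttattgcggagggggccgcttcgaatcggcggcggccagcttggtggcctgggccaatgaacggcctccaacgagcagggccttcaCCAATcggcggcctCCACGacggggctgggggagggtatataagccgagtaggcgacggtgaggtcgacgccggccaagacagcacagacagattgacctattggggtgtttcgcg

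HSP90B1, on chr12:103930160-103930459 (plus strand), held 2 elements, 1 on each strand.
HSP90B1: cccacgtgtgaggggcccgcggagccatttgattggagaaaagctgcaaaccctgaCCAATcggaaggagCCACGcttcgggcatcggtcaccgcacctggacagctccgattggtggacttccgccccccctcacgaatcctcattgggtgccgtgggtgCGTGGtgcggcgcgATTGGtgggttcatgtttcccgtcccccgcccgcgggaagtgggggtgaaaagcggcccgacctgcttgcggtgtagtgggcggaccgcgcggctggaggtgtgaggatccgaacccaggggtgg

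For the other genes with an element, only the element and 5 bases on each side are shown, read along the gene, so that an element on the opposite strand begins with CGTGG. They lie at chr19:12938379-12938407 (CALR), chr5:179698773-179698801 (CANX), chr22:28800598-28800626 (XBP1), chr22:49918549-49918577 (CRELD2), chr2:10812848-10812876 (PDIA6), chr1:236282178-236282206 (ERO1B), chr11:119057375-119057395 (HYOU1, the farther of 2), chr22:21642109-21642129 (SDF2L1) and chr16:56932020-56932040 (HERPUD1).
CALR: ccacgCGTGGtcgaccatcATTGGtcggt
CANX: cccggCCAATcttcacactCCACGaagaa
XBP1: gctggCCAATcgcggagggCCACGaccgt
CRELD2: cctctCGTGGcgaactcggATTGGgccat
PDIA6: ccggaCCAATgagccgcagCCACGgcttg
ERO1B: gcccgCGTGGtcccgcctcATTGGccgcc
HYOU1: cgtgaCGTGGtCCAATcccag
SDF2L1: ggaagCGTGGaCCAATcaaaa
HERPUD1: cgccgATTGGgCCACGttggg

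The comparison asked how mRNA of these genes differed between cells given the mimic and cells given the scrambled oligonucleotide. Several of the most abundant folding genes were higher in the mimic group by about 11% to 30%. None of the 5 sensing and 9 degradation genes was called risen. These groups are too small to tell this from the 6.8% risen of all tested genes. At a false discovery rate of 0.05 over all tested genes, edgeR's quasi-likelihood test called 10 of the 39 genes risen and 2 fallen. The background was 6.8% risen and 6.19% fallen of all 15607 genes. In 15 of the 39 every mimic library lay above every mock library, against 14.4% of all genes, and in 5 every mimic library lay below, against 13.9%. The median log2 fold change was 0.061 over the 39 genes and 0.002 over all genes, with a range from −0.29 to 0.38 in the 39. Without mimic replicate 1, 6 genes rose, 1 fell and the median was 0.02.

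After TMM scaling, the 39 genes together took 0.931%, 0.894% and 0.910% of the scaled library size in the mimic libraries. In the mock libraries they took 0.830%, 0.810% and 0.803%. These are not shares of the raw counts. The groups did not overlap in this summed level, which was 9116 ± 187 CPM (counts scaled to a common library size with TMM factors, SD, n = 3) in the mimic group and 8146 ± 141 CPM in the mock group. A few very abundant genes make up most of this sum. Mimic replicate 1 had the highest sum, and its median log2 level over the 11 chaperones, relative to the mock mean, was 0.19 against 0.077 and 0.082 in the other mimic libraries.

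**Figure D1:**
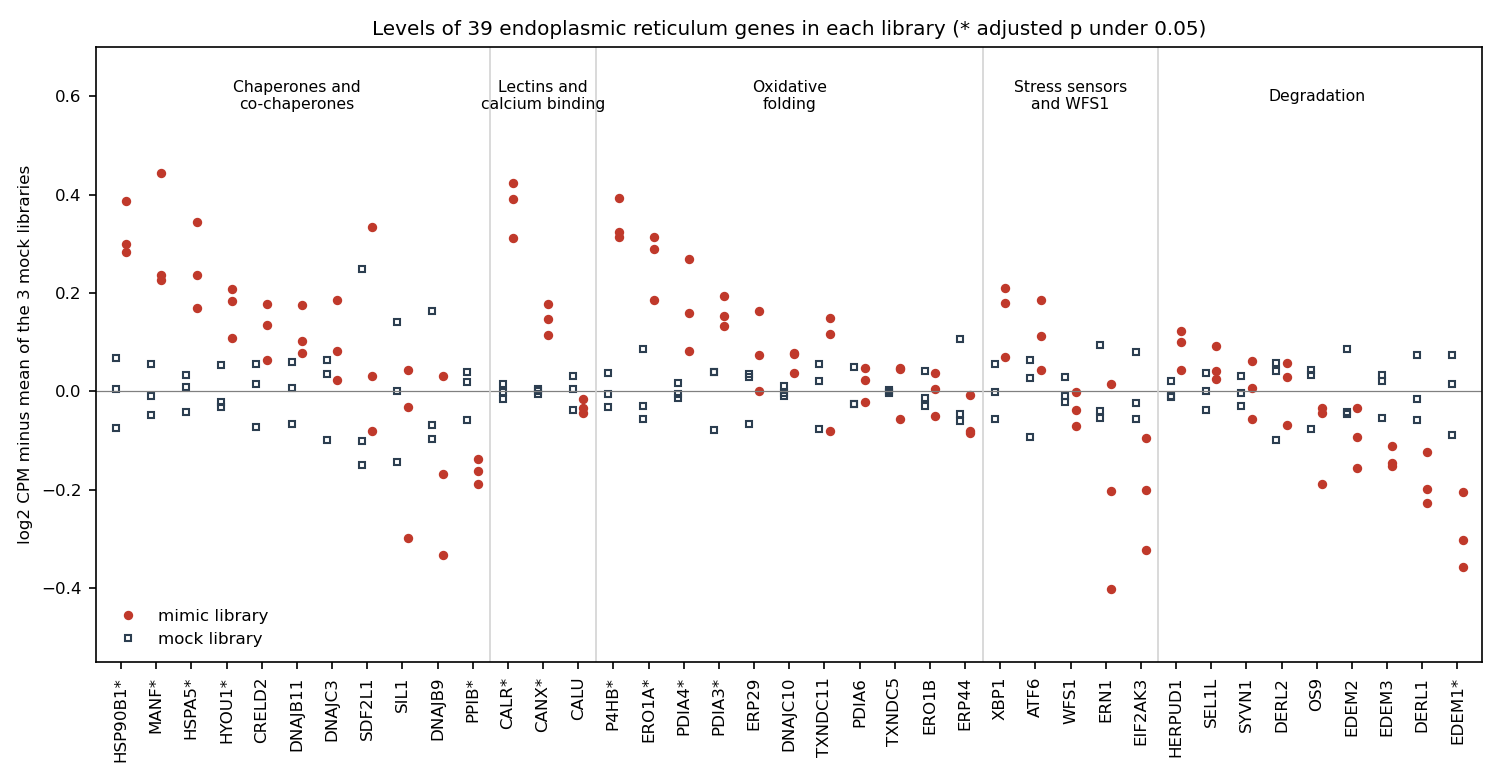
Level of each of the 39 genes in each library as log2 CPM minus the mean of the 3 mock libraries (y axis), grouped by role and ordered by log2 fold change (x axis), with mimic libraries as filled circles, mock libraries as open squares and an asterisk for an adjusted p under 0.05. Mimic libraries lie above the mock libraries for 10 called folding genes and below them for PPIB and EDEM1.

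Among the 11 chaperones and their helpers, 4 rose (36.4%, against 6.8% of all tested genes) and 1 fell (9.09%, near the 6.19% of all). The other 6 were not called, and the median log2 fold change was 0.12. HSP90B1, which encodes the ER form of Hsp90 (GRP94), was at 1236, 1164 and 1151 CPM in the mimic libraries and 991, 949 and 899 CPM in the mock libraries. The lowest mimic library thus lay well above the highest mock library. Its log2 fold change was 0.32 ± 0.04 (SE; edgeR adjusted p = 6.14e-08).

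HSPA5, whose product BiP is the Hsp70 of the ER and holds the sensors inactive, measured 778, 689 and 722 CPM after the mimic and 627, 616 and 595 CPM in the mock group. Mimic replicate 1 was the highest of the 6 and the groups did not overlap. Its change was 0.25 ± 0.05 on the log2 scale, a rise of 19% (edgeR adjusted p = 2.92e-05). MANF, a small secreted and ER-resident protein that binds BiP, was at 75.0, 74.5 and 86.6 CPM against 61.6, 66.2 and 63.3 CPM. Its mimic libraries were all higher, replicate 3 most of all, and it changed by 0.30 ± 0.07 (adjusted p = 0.00069). HYOU1 (GRP170), the large Hsp70-like protein that exchanges nucleotide on BiP, was at 347, 324 and 342 CPM against 312, 294 and 296 CPM. The gap between its groups was narrow, and its change of 0.17 ± 0.05 passed (adjusted p = 0.00921) but did not pass when mimic replicate 1 (0.0857), or mock replicate 2 (0.0656) or 3 (0.0635), was left out.

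The member that fell in this group was PPIB, which encodes cyclophilin B, a prolyl isomerase of the ER. It was at 274, 279 and 284 CPM in the mimic libraries and 321, 300.0 and 316 CPM in the mock libraries, so all mimic libraries were lower. Its log2 fold change was −0.16 ± 0.05 (adjusted p = 0.0109), and the call ended on leaving out mimic replicate 1 (0.0732) and likewise mock replicate 1 (0.0913) or 3 (0.0624). Exons of PPIB overlap those of SNX22 on the opposite strand over 27.2% of their bases, and SNX22 was counted at 69.4% of the PPIB level and called with the same change, −0.16 ± 0.05. Use of strand in the counting was not given in the sources used here, so reads of this pair cannot be assigned with certainty.

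The remaining 6 genes were the J-domain co-chaperones of BiP DNAJB9, DNAJB11 and DNAJC3, its nucleotide exchange factor SIL1, SDF2L1, which works with DNAJB11, and CRELD2, a disulfide-rich ER protein. DNAJB11 was at 131, 128 and 137 CPM against 122, 116 and 127 CPM, and CRELD2 at 56.0, 54.3 and 51.8 CPM against 50.05, 47.1 and 51.5 CPM. Neither pair of groups overlapped, but the log2 fold changes of 0.12 ± 0.05 and 0.13 ± 0.07 did not pass (adjusted p = 0.149 and 0.258 by edgeR). Exons of CRELD2 overlap those of ALG12 on the opposite strand, which was counted at 74% of the CRELD2 level. Those of DNAJB11 overlap TBCCD1, counted at 10.5% of the DNAJB11 level. DNAJB9, one of the genes that XBP1 is best known to control, was at 32.2, 25.0 and 28.0 CPM against 29.4, 30.0 and 35.2 CPM, with overlapping groups and a log2 fold change of −0.14 ± 0.10. Exons of DNAJB9 overlap those of THAP5 and PNPLA8, which were counted at 123% and 119% of its level. PNPLA8 was itself called fallen, by −0.26 ± 0.08 (edgeR adjusted p = 0.0228), and THAP5 was not called, at 0.13 ± 0.09.

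SDF2L1, another well-known stress target, was at 27.03, 21.9 and 20.3 CPM against 25.5, 20.02 and 19.3 CPM. In both groups replicate 1 was the highest, the groups overlapped, and the log2 fold change was 0.096 ± 0.112. Its 95% interval, −0.12 to 0.32, nearly reaches the change of HSP90B1. DNAJC3 (p58IPK) was at 14.4, 12.9 and 13.4 CPM against 11.8, 13.2 and 12.95 CPM, and SIL1 at 24.8, 26.1 and 20.6 CPM against 25.4, 27.9 and 23.0 CPM. The groups overlapped for both, with log2 fold changes of 0.10 ± 0.13 and −0.091 ± 0.102.

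The 3 genes of calcium-binding and lectin chaperones held the called gene with the smallest p. CALR encodes calreticulin, the soluble lectin that retains glycoproteins with a trimmed sugar chain. It stood at 1069, 1012 and 1093 CPM in the mimic libraries and 824, 815 and 807 CPM in the mock libraries, far apart relative to the spread within each group. This was a rise of 29.8%, or 0.38 ± 0.04 on the log2 scale (edgeR adjusted p = 4.23e-10). CANX, the membrane-bound counterpart calnexin, was at 1109, 1062 and 1085 CPM against 977, 983 and 981 CPM. Its mock libraries were nearly equal, and its smaller change of 0.15 ± 0.04 passed (adjusted p = 0.0131) but not when mimic replicate 1 (0.0996), or mock replicate 1 (0.0661) or 3 (0.0636), was left out. CALU, calumenin, a calcium-binding protein of the secretory pathway, was at 281, 279 and 285 CPM against 294, 289 and 280.3 CPM, with overlapping groups. Its difference was −0.032 ± 0.046, with a 95% interval from −0.12 to 0.058.

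Of the 11 oxidative folding genes, 4 rose (36.4%, against 6.8% of all tested genes) and none fell (against 6.19% of all). The median log2 fold change was 0.063. P4HB, which encodes protein disulfide isomerase itself, was at 793, 798 and 838 CPM in the mimic libraries and 654, 624 and 635 CPM in the mock libraries. The groups were clearly separated, with a change of 0.34 ± 0.04 (adjusted p = 7.66e-09). ERO1A, the oxidase that recharges disulfide isomerases, was at 108, 106 and 98.9 CPM against 92.2, 83.6 and 85.1 CPM. It changed by 0.26 ± 0.06 (adjusted p = 0.000903), and all its mimic libraries were higher. Its paralogue ERO1B was at 46.0, 48.9 and 47.9 CPM against 47.2, 49.1 and 46.7 CPM. The ERO1B groups overlapped, and its log2 fold change was −0.0042 ± 0.0738, in an interval from −0.15 to 0.14.

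PDIA4 (ERp72), a disulfide isomerase, was at 337, 312 and 296 CPM against 283, 277 and 279 CPM. Mimic replicate 1 was the farthest from the mock libraries, and the change of 0.17 ± 0.05 (adjusted p = 0.00779) did not pass without it (0.168). PDIA3 (ERp57), which works with calnexin and calreticulin, was at 323, 310.0 and 314 CPM against 290.3, 290.4 and 268 CPM. Its change of 0.16 ± 0.05 (adjusted p = 0.015) was not called by DESeq2 (0.0518), without mimic replicate 1 (0.103) or without mock replicate 3 (0.161). The pseudogene PDIA3P1 was counted at 18.9% of the PDIA3 level and had a log2 fold change of 0.12 ± 0.07, which did not pass.

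Other abundant isomerases were not called. PDIA6 (ERp5) was at 362, 345 and 355 CPM against 362, 344 and 344 CPM, with an interval of the log2 fold change from −0.073 to 0.11. TXNDC5 (ERp46) was at 481, 481 and 448 CPM against 466, 465 and 466 CPM, with an interval from −0.074 to 0.10. Both intervals exclude a change as large as that of P4HB, whose own interval began at 0.26. The readthrough gene BLOC1S5-TXNDC5 was counted at 98.6% of the TXNDC5 level, with overlap on the same strand over 60.6% of TXNDC5 exon bases, so reads of this pair cannot be told apart. Exons of PDIA6 overlap those of ATP6V1C2 over 25.2% of their bases, and that gene was counted at 31.8% of the PDIA6 level.

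The remaining 4 oxidative folding genes had log2 fold changes from −0.062 to 0.079, and none was called. DNAJC10 (ERdj5), a reductase that opens disulfide bonds before degradation, was at 149, 153 and 153 CPM against 145, 146 and 144 CPM. Its groups did not overlap, but its change of 0.063 ± 0.051 did not pass (edgeR adjusted p = 0.475). ERP29, a chaperone with a thioredoxin fold, was at 129, 115 and 121 CPM against 117, 118 and 110 CPM, and ERP44, which retrieves proteins from the Golgi, at 90.3, 90.1 and 95.1 CPM against 103, 91.6 and 92.5 CPM. TXNDC11, a membrane thioredoxin-like protein, was at 39.3, 33.5 and 38.4 CPM against 35.9, 36.8 and 33.6 CPM. The groups of these 3 overlapped. Exons of TXNDC11 overlap those of SNN on the opposite strand over 1.9% of their bases, and SNN, counted at 48.6% of the TXNDC11 level, fell (−0.60 ± 0.12, adjusted p = 7.70e-05).

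**Figure D2:**
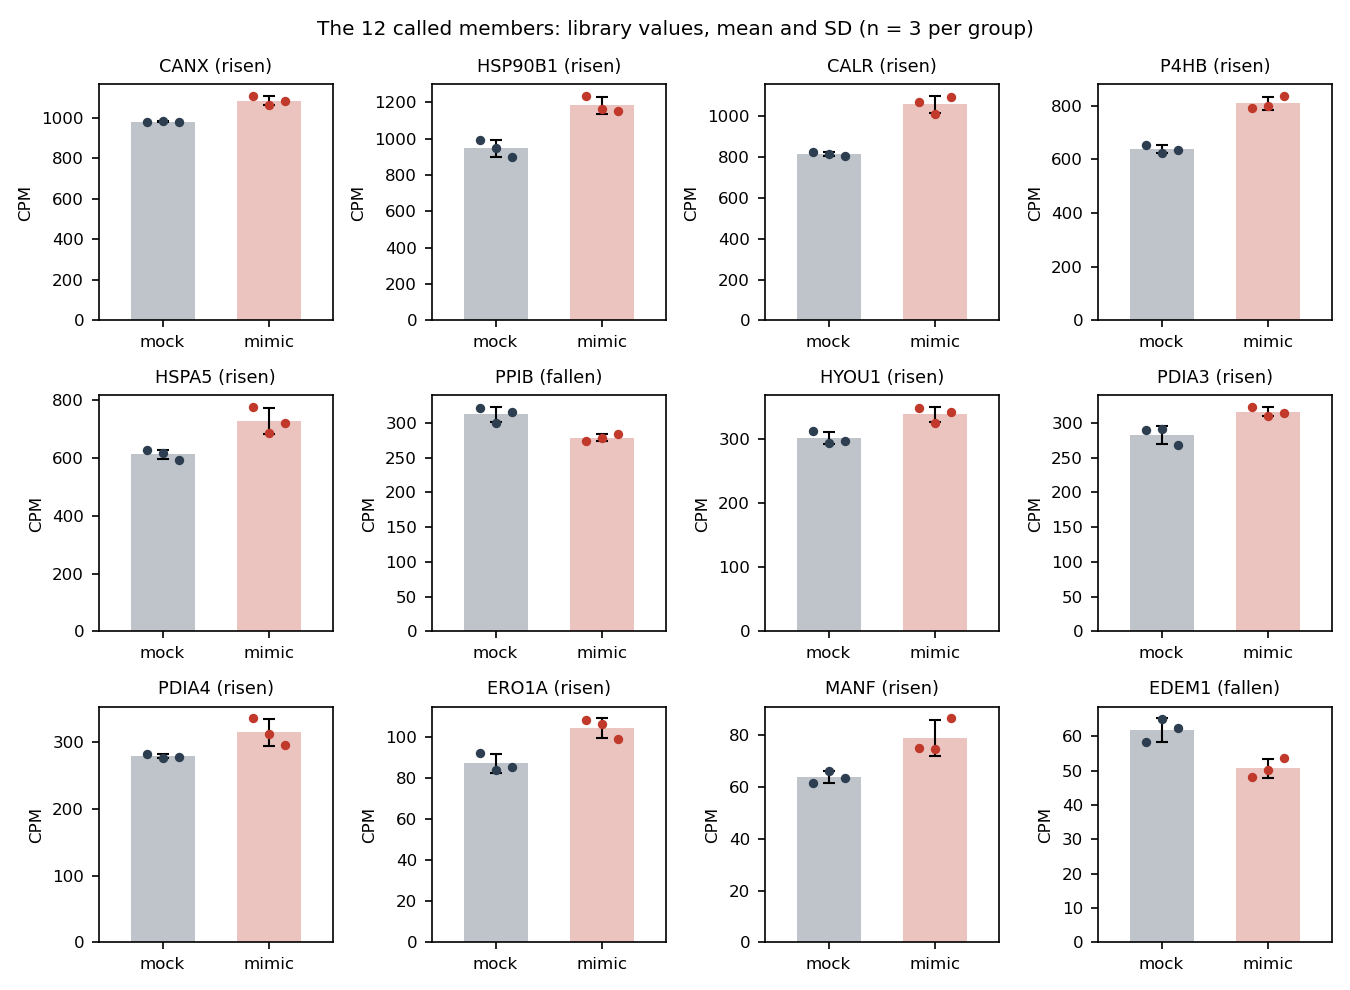
CPM (y axis, from 0) of the 12 called genes in the mock and mimic groups (x axis), with points for libraries, bars for means and error bars for SD (n = 3 per group), ordered by mock level. The 10 risen genes differ by 11% to 30%, CALR the most, and PPIB and EDEM1 are lower in every mimic library.

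Of the sensors IRE1 (ERN1), PERK (EIF2AK3) and ATF6, the transcription factor XBP1 and the ER membrane protein WFS1, none was called by edgeR or by DESeq2. Of all tested genes, edgeR called 6.8% risen and 6.19% fallen. In edgeR, 2 of the 5 (XBP1 and EIF2AK3) had an unadjusted p under 0.05. XBP1, itself a target of ATF6, was at 56.2, 55.04 and 51.0 CPM in the mimic libraries and 48.6, 46.7 and 50.5 CPM in the mock libraries. The groups did not overlap by a small margin, and the log2 fold change of 0.16 ± 0.07 did not pass (adjusted p = 0.147). EIF2AK3 was at 39.2, 42.6 and 45.8 CPM against 48.2, 51.7 and 47.0 CPM. All its mimic libraries were lower, and the change of −0.21 ± 0.08 just missed the threshold (adjusted p = 0.0587). It passed with library totals as the only scaling (0.0481) and without mimic replicate 3 (0.0157). ATF6, at 78.5, 74.7 and 82.5 CPM against 75.8, 74.0 and 68.0 CPM, had overlapping groups and a change of 0.11 ± 0.06. WFS1, at 45.2, 46.4 and 44.2 CPM against 46.1, 45.7 and 47.4 CPM, also overlapped, with a change of −0.034 ± 0.075. ERN1 was the least abundant of all 39, at 7.78, 8.94 and 10.4 CPM against 9.90, 10.98 and 10.0 CPM, and its interval from −0.50 to 0.10 leaves its direction undetermined at this depth.

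In the degradation group, 1 of 9 genes fell (11.1%, against 6.19% of all tested genes), none rose, and the median log2 fold change was −0.086. EDEM1, a mannosidase-like protein that marks misfolded glycoproteins for removal, was at 48.3, 50.2 and 53.7 CPM in the mimic libraries and 58.2, 65.1 and 62.5 CPM in the mock libraries. Every mimic library was lower, and the change of −0.29 ± 0.07, a fall by 18.2%, passed (edgeR adjusted p = 0.00242). It was called under each of the 16 alternatives run, with adjusted p from 0.000397 to 0.0322. Its relatives EDEM3, at 54.5, 52.9 and 53.2 CPM against 59.7, 60.2 and 56.7 CPM, and EDEM2, at 20.8, 19.1 and 19.99 CPM against 22.7, 20.7 and 20.7 CPM, did not pass (adjusted p = 0.196 and 0.631). The EDEM3 groups did not overlap, and those of EDEM2 did.

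DERL1, a derlin of the channel that moves proteins back to the cytosol, was at 64.7, 61.5 and 60.3 CPM against 69.7, 67.7 and 74.3 CPM. Its mimic libraries were all lower, but the change of −0.18 ± 0.07 did not pass (adjusted p = 0.0627), except with library totals as the only scaling (0.0485). The core ubiquitin ligase SYVN1 (HRD1), its partner SEL1L and the derlin DERL2 had log2 fold changes of 0.0057 ± 0.0543, 0.052 ± 0.058 and 0.0039 ± 0.0685. SYVN1 was at 127, 122 and 117 CPM against 124, 121 and 119 CPM, SEL1L at 93.8, 94.9 and 98.2 CPM against 92.2, 89.8 and 94.6 CPM, and DERL2 at 62.0, 63.3 and 57.9 CPM against 62.5, 63.3 and 56.7 CPM. All 3 pairs of groups overlapped, and for SYVN1 the 95% interval was −0.10 to 0.11. The lectin OS9 measured 265, 267 and 240 CPM against 281, 259 and 279 CPM and was not called. HERPUD1, a stress-induced subunit of the ligase complex, was at 38.0, 36.5 and 38.6 CPM against 35.1, 35.2 and 35.9 CPM, without overlap, and its change of 0.090 ± 0.082 was not called. Exons of DERL2 and SYVN1 overlap those of MIS12 and FAU, which were counted at 116% and 166% of their levels. SYVN1 also overlaps MRPL49, counted at 53.3% of its level. DERL1 overlaps TBC1D31, counted at 45.1% of its level, over 5.6% of its exon bases. The values of DERL2, SYVN1 and DERL1 are therefore less certain.

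The called genes were mostly abundant ones. Among the 13 genes with the highest mean level, 8 rose and 1 fell, with a median log2 fold change of 0.16. All tested genes in the same range of levels numbered 481, of which 15.4% rose and 11.4% fell, with a median of 0.014. Among the middle 13, 2 rose (MANF and ERO1A) and 1 fell (EDEM1), or 15.4% and 7.69%, near the 10.6% and 10.4% of the 3480 tested genes at those levels. Among the lowest 13 edgeR called none, with 2 at an unadjusted p under 0.05, while 6.28% rose and 6.1% fell of the 6130 tested genes at their levels. Standard errors grew from 0.043 to 0.049 in the highest 13 to 0.072 to 0.15 in the lowest 13, so the smaller changes called among abundant genes were not detectable in the rarest.

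Per kilobase of annotated exon, CALR had the highest mock level, 300.3 ± 3.24 CPM per kilobase, ahead of HSP90B1 at 202 ± 9.86. PPIB (164 ± 5.75), CANX (157 ± 0.50) and HSPA5 (157 ± 4.201) followed and did not differ beyond their spread, and P4HB came next at 120 ± 2.87. In the mimic group CALR stood at 390 ± 15.2 and HSPA5 at 187 ± 11.6 CPM per kilobase, above PPIB at 146 ± 2.53. ERN1 was lowest, with 0.95 ± 0.055 in the mock group. Exon length was the union over all GENCODE release 29 transcripts, which understates levels of genes with long rare exons, such as DNAJC10 with 21835 bases.

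**Figure D3:**
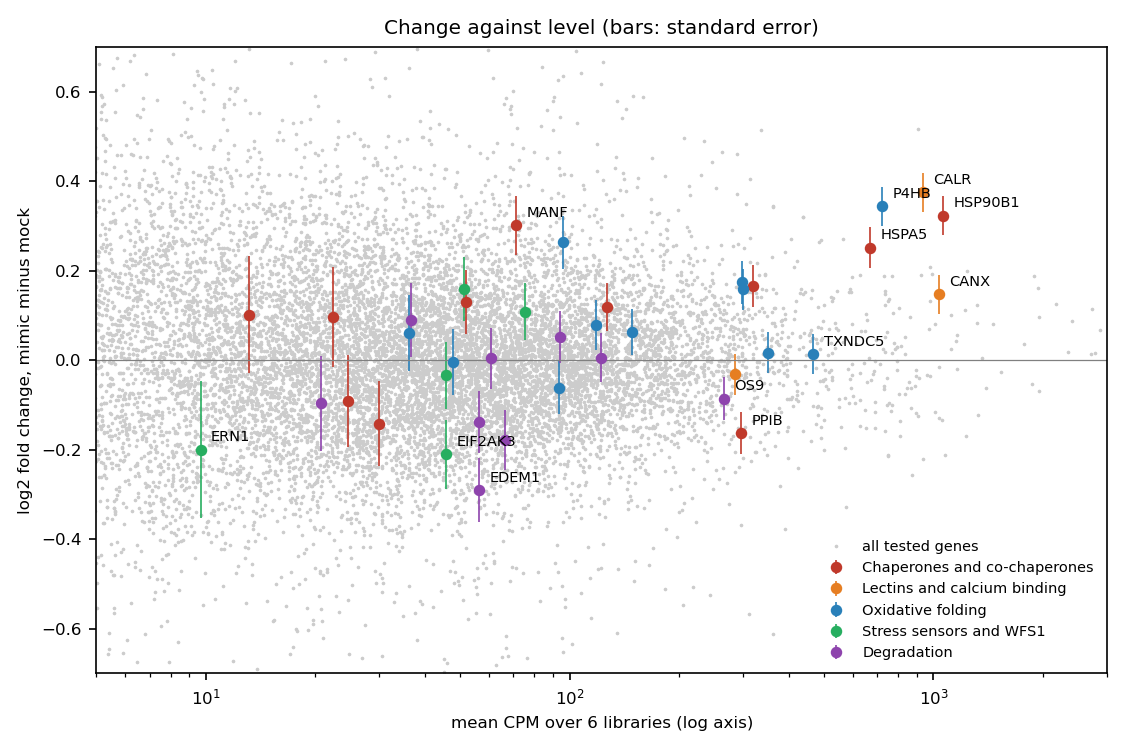
Log2 fold change of mimic against mock (y axis) against mean CPM over the 6 libraries (x axis, log scale) for all tested genes (grey, those outside the axis limits not drawn) and the 39 genes by role, with SE bars. CALR, P4HB, HSP90B1 and HSPA5 lie at the upper right, while TXNDC5, at a lower level than these, lies near 0 and EDEM1 lies lowest of the 39.

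Genes with a stress element in the promoter window were compared with those without. Of the 11 with an element, 5 (45.45%) rose (CALR, CANX, HSP90B1, HSPA5 and HYOU1), against 6.8% of all tested genes. None of them fell, and their median log2 fold change was 0.15. Of the 26 with a window but no element, 4 (15.4%) rose (P4HB, MANF, ERO1A and PDIA4). Another 2 (7.69%) fell (PPIB and EDEM1), near the 6.19% of all tested genes, and the median was 0.005. The genes with an element were also more abundant, with a median mock level of 301 CPM against 79.8 CPM, and the part of abundance in this difference was not tested. XBP1, CRELD2, PDIA6 and ERO1B with an ERSE, and SDF2L1 and HERPUD1 with an ERSE-II, were not called. Outside the 39, 19 tested genes had an element, of which 2 rose (10.5%) and 3 fell (15.8%), with a median of −0.044. A match is a run of letters in a window and does not show that a factor bound there. Only exact spellings were searched, so a window without a match may still hold a variant of an element.

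**Figure D4:**
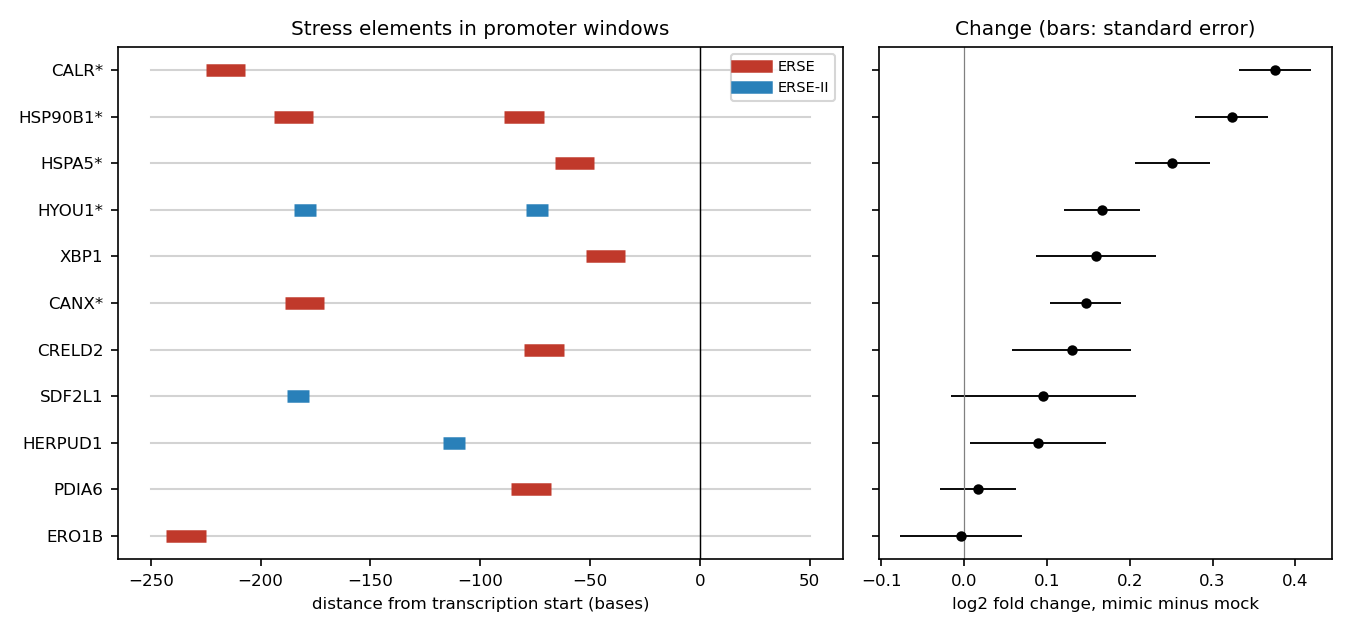
Left, position of ERSE and ERSE-II matches relative to the transcription start (x axis, bases) in the 11 genes that hold one (for CANX, from the start farthest downstream), and right, their log2 fold change with SE, ordered by change, with asterisks for called genes. The 4 genes with the largest changes, CALR, HSP90B1, HSPA5 and HYOU1, are called, and matches lie between 243 and 34 bases before the start.

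Other genes of the same pathways were counted from lists written by role, to be read beside the 6.8% risen and 6.19% fallen of all tested genes. In the ER translocon and signal peptidase list, which brings proteins into the ER, none of 19 rose and 3 (15.8%) fell. These were SRPRA, a subunit of the signal recognition particle receptor (132 ± 6.47 against 162 ± 0.27 CPM), and the channel subunits SEC61B (57.9 ± 5.28 against 69.7 ± 7.69 CPM) and SEC61A1 (209 ± 7.71 against 235 ± 3.65 CPM). The SEC61B groups overlapped, since its lowest mock library, at 60.9 CPM, lay below its highest mimic library, at 62.0 CPM. The list's median log2 fold change was −0.056.

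Of 23 tested folding enzymes outside the 39, 5 rose (21.7%) and 2 fell (8.7%), with a median of 0.096. The peroxidase PRDX4, which also makes disulfide bonds, was at 152, 148 and 144 CPM against 97.8, 98.0 and 93.1 CPM, a change of 0.62 ± 0.05 (adjusted p = 3.40e-14 by edgeR). TXNDC12 (ERp18) was at 108, 112 and 118 CPM against 74.3, 71.5 and 73.1 CPM, a change of 0.63 ± 0.06. Both changes were larger than that of any of the 39. The collagen-folding isomerase FKBP10 changed by 0.33 ± 0.05.

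Of 22 other ER chaperones, 2 rose and 2 fell (9.09% each), with a median of 0.061. These shares were near the 6.8% and 6.19% of all tested genes. MESD, a chaperone of lipoprotein receptors, was at 108, 99.6 and 103 CPM against 53.7, 54.8 and 51.6 CPM, and the calcium-binding RCN1 changed by 0.21 ± 0.05. UGGT1, the glucosyltransferase that returns unfolded glycoproteins to calnexin and calreticulin, was at 181, 187 and 179 CPM against 190.0, 207 and 218 CPM, a change of −0.17 ± 0.05 (adjusted p = 0.0175).

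In the list of other degradation genes, 2 of 23 rose (8.7%) and 1 fell (4.35%), with a median of 0.010. These shares too were near the 6.8% and 6.19% of all tested genes. ERLIN2, of the membrane complex that degrades activated calcium channels, changed by 0.47 ± 0.07, and the stress-induced derlin DERL3 by 0.50 ± 0.11. Of 6 receptors for ER autophagy none rose and 2 (33.3%) fell, CALCOCO1 by −0.28 ± 0.06 and ATL3 by −0.28 ± 0.10, in log2 units.

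Of 19 tested genes of stress signalling outside the 39, 7 rose (36.8%) and 1 fell (5.26%), with a median of 0.21. ATF4, the transcription factor translated when PERK or related kinases are active, was at 446, 435 and 450.2 CPM against 384, 361 and 358 CPM, a change of 0.27 ± 0.05. TRIB3, a target of ATF4, changed by 0.53 ± 0.08, and CREB3L2, an ATF6-like factor of secretory cells, by 0.32 ± 0.07. In the interferon list, included because duplex RNA can start that response, none of 8 tested genes was called by edgeR, and 2 had an unadjusted p under 0.05. IFIT3 had a log2 fold change of −0.36 ± 0.14 and IFIT2 of −0.35 ± 0.17, and the groups overlapped for both.

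As a check of the label, the line's markers VIM, KRT8, KRT18, NEFM and PAX2 were present in every library, PAX2 at 5.94 to 10.9 CPM. No counts were found in any library under the symbol of NEFL, another marker of the line. The same held for PTPRC, PECAM1 and INS, markers of blood, endothelium and pancreatic beta cells. A symbol was assigned to 25141 of the 26613 counted genes. A symbol without counts therefore does not show that its gene was absent. The liver marker ALB had at most 3 counts. COL1A1, a fibroblast marker that the line was also taken to lack, was at 35.5 to 41.0 CPM, above PAX2. The reason was not tested. In a principal component analysis of all tested genes, component 2 set mimic replicate 3 (−18.9) away from replicates 1 and 2 (8.44 and 13.6), and component 3 did so for mock replicate 3 (18.6 against −11.6 and −8.31). Without mimic replicate 3 the same test called 10 of the 39 risen and 3 fallen, and without mock replicate 3 it called 7 risen and 1 fallen.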

How the data were processed

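The deposited tables hold whole-number counts per Ensembl gene, 1 library each, without normalization, and list only genes with a count, so missing genes were set to 0. STAR, edgeR and the build hg19 are named in the submitters' processing notes. The counting program, annotation and strand setting were not given in the sources used here. Symbols came from a table of gene names. Promoters came from RefSeq (GRCh38.p14) and 3′ UTRs, exon lengths and overlaps from GENCODE release 29 (GRCh38), so no coordinate refers to the authors' build.

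Libraries were grouped by title. edgeR 4.0.16 (R 4.3.3) filterByExpr kept 15607 genes and 99.7% of counts. After TMM scaling, the quasi-likelihood test with robust dispersions and group as the only term was applied, two-sided, and p-values were adjusted by Benjamini-Hochberg across the 15607 genes (threshold 0.05). The test was tested on simulated data. Standard errors of log2 fold changes were back-calculated from the test statistic, and 95% intervals are 1.96 of them on each side. Libraries of the same group differed by 1.27 to 2.38 times sampling noise, so none was a duplicate. Alternatives were DESeq2 1.42.0, limma 3.58.1 voom, other scalings and filters, a replicate block and each library left out. An offset for GC content and length (mgcv 1.9.3) was chosen after seeing the data. The 39 genes, roles and lists were chosen with earlier results of these data known. All 39 are accounted for, and from each other list up to 3 called genes with the smallest p are named (where fewer than 2 were called, up to 2 as values). A gene that this rule names is not reported here.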

Additional observations from a re-analysis of the deposited data

How the results depend on the processing

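Changes of these genes are small, mostly under 0.4 on the log2 scale, and rest on 3 libraries per group. The count of 10 risen genes was 9 under DESeq2 and 10 under every other scaling, filter, test and offset. With each library left out in turn it ranged from 6 to 10, and the count of fallen genes from 1 to 3. The fallen count was 4 with library totals as the only scaling, where DERL1 and EIF2AK3 were added. The median log2 fold change of the 39 genes ranged from 0.02 to 0.056 with a library left out. Over all genes, DESeq2 called 516 risen and 499 fallen against 1061 and 966 by edgeR, and with a library left out edgeR called 689 to 1080 risen and 613 to 981 fallen. CALR, HSP90B1, P4HB, HSPA5, MANF, ERO1A and EDEM1 were called under all 16 alternatives.

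The replicate block left 10 risen and 2 fallen, with a median of 0.060. Deviations of same-numbered libraries correlated at 0.0933, −0.0816 and −0.0469, within the range of −0.0836 to 0.133 for libraries with different numbers. No shared effect of the replicate number was thus visible, which cannot show whether same-numbered cultures were handled together. With the offset for GC content and length the counts were 10 and 2 as well, with or without the block. The following genes, none of them called in any setting, changed sign. With library totals DERL2 was at −0.005 and SYVN1 at −0.003, and without a filter at −0.004 and −0.002. ERO1B was at 0.002 with upper-quartile factors and at 0.027 with the offset, also with the block. With a library left out, DERL2 ranged from −0.041 to 0.036, SYVN1 from −0.025 to 0.033, ERO1B from −0.027 to 0.02, TXNDC5 from −0.005 to 0.045, SDF2L1 from −0.04 to 0.237 and PDIA6 from −0.0001 to 0.042. For all of these the cause was not tested. Depth limits the rarest genes most: 3 counts correspond to 0.392 to 0.493 CPM.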
